A study of Brassica napus with 9 samples.

Results

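Among the genes of developing rapeseed pods, 48 of 91830 kept their transcript level from 8 to 25 days after fertilization (DAF) and then lost most of it by 45 DAF in each of 3 plant lines. The members were chosen from the measured values themselves. Within a line, the normalized read count at 25 DAF had to lie within 2-fold of that at 8 DAF, and the log2 ratio of 45 to 25 DAF had to be -2 or lower. The mean normalized read count of the 6 libraries of 25 and 45 DAF had to reach 1000, and genes that were at least 2-fold lower than Youngsan at 45 DAF in both transgenic lines, or 2-fold higher in CpFatB4 and 2-fold lower in CpFatB5, were left out. Stage changes and line differences at 45 DAF therefore describe the members and carry no test.

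The libraries came from whole pods with their seeds of Brassica napus, the oilseed crop rapeseed. The days are named here as days after fertilization, while the study counted them from flowering and marked buds as they opened. The lines were the wild-type cultivar Youngsan and Youngsan plants homozygous for 1 of 2 acyl-ACP thioesterase transgenes of Cuphea paucipetala, CpFatB4 or CpFatB5, both driven by the seed-specific Napin promoter. Each of the 9 libraries, 1 per line at 8, 25 and 45 DAF, was made from a pool of RNA preparations, so no difference between 2 libraries has a replicate check. In these whole pods, fewer cells of a type and less RNA per cell cannot be told apart.

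A pod is wall and seed together. Its seeds pass from cell division to filling with oil and storage protein and then to drying, and the wall ripens meanwhile. Waxes on the surface of the pod wall and seed coat are built from very-long-chain fatty acids. These are elongated at the endoplasmic reticulum with acetyl units that cytosolic ATP citrate lyase supplies. Lipid transfer proteins are small secreted proteins that bind lipids and are abundant in epidermal cells.

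Both columns of a library together held between 38677752 counts in CpFatB5 at 45 DAF and 88259440 counts in Youngsan at 25 DAF. The storage protein transcripts that mark filling seeds, 3 Napin and 4 Cruciferin genes, held 0.00104 to 0.00264% of counts at 8 DAF and 1.62 to 4.10% at 25 DAF. At 45 DAF they held 3.12% in Youngsan, 17.7% in CpFatB4 and 1.36% in CpFatB5. This share pooled families that changed differently. Summed normalized read counts of Napin fell after 25 DAF in Youngsan (642493, then 233120 at 45 DAF) and CpFatB5 (433402, then 98522). Those of Cruciferin rose in Youngsan (358438, then 981137) and CpFatB5 (100821, then 410323). In CpFatB4 both families rose. The summed normalized read count of 6 late maturation genes was at most 59.1 at 8 and 25 DAF, and at 45 DAF it reached 273933 in Youngsan, 114524 with CpFatB4 and 311877 with CpFatB5. The libraries of 45 DAF thus differed in their seed transcripts between lines. No pod wall markers were named in the sources used here.

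The 48 genes held a stable share of all counts and then lost most of it. Their share in Youngsan was 0.685% at 8 DAF, 0.600% at 25 DAF and 0.0615% at 45 DAF (Wilson 95% interval 0.0609 to 0.0620%). In CpFatB4 it was 0.676, 0.587 and 0.0700% (0.0694 to 0.0707%), and in CpFatB5 0.673, 0.647 and 0.0417% (0.0411 to 0.0424%). The intervals cover counting error only, since reads are not independent molecules. Reads counted repeatedly would make them too narrow. The order of the lines was not the same at the 3 stages, and the libraries of 45 DAF lay far below all 6 earlier ones.

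**Figure D1:**
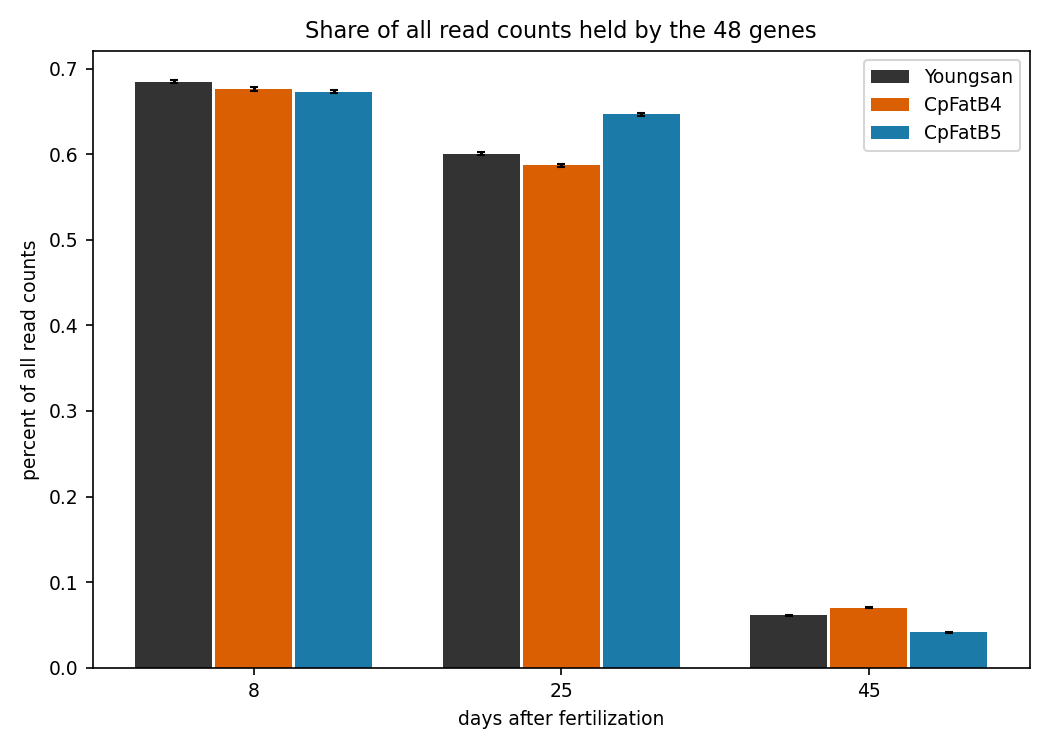
Percent of all read counts held by the 48 genes (vertical axis, from 0) at 8, 25 and 45 days after fertilization (horizontal axis) in Youngsan, CpFatB4 and CpFatB5. Bars are single libraries and error bars are Wilson 95% intervals for counting error only; the 6 early bars lie between 0.587 and 0.685% and the 3 late bars between 0.0417 and 0.0700%.

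The median normalized read count of the members was 3357 at 8 DAF, 3557 at 25 DAF and 358 at 45 DAF in Youngsan. It was 3105, 3428 and 609 with CpFatB4, and 3518, 3442 and 292 with CpFatB5. The members therefore kept a median of 11.6% of their level of 25 DAF in Youngsan, 20.5% in CpFatB4 and 7.61% in CpFatB5. The median log2 ratio of 45 to 25 DAF was -3.11, -2.29 and -3.72 in these lines, against -0.07, -0.23 and -0.52 over the 6364 genes that reached the minimum of 1000. Of those genes, 3.72% fell to this extent in all 3 lines, 237 in number, and the threshold was passed by 9.96% in Youngsan, 4.05% in CpFatB4 and 16.6% in CpFatB5.

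**Figure D2:**
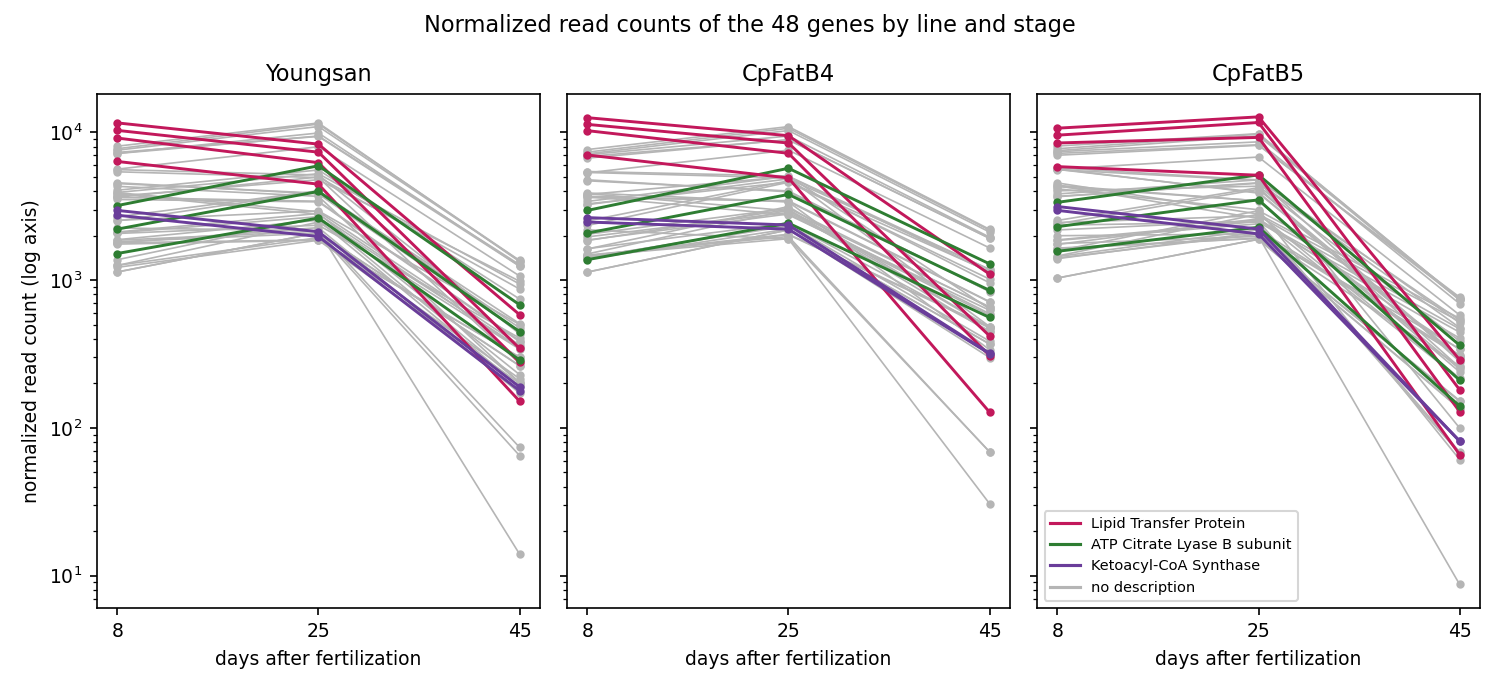
Normalized read count (log axis) of each of the 48 genes at 8, 25 and 45 days after fertilization, with 1 panel per line and 1 point per library. Coloured lines are the 9 genes with a lipid description, and grey lines are the others; levels stay near each other at 8 and 25 days and drop by 45 days, to as little as 8.73 in CpFatB5.

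Flat early levels separated the members from most genes that fell late, though 59.2% of the 6364 genes were flat by this measure. Of the 237 genes, 153 had risen at least 2-fold from 8 to 25 DAF in all 3 lines, 4 had fallen at least 2-fold in all 3, 51 were flat in all 3 and 29 followed none of these patterns. The clause on line differences removed 3 of the 51, namely BnaAnng28310D, BnaC02g38800D and BnaA03g55560D. Within the allowed band the members still leaned in different directions: 32 were higher at 25 than at 8 DAF in all 3 lines, a direction held by 63.1% of the 6364 genes, 12 were lower in all 3, and 4 differed in direction between lines. With size factors from genes averaging 1000 counts or more these counts became 17, 16 and 15, and with total count scaling 18, 15 and 15.

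Only 9 members had a description in the study's list of lipid genes, which was held here in shortened form and on which no set test was run. All 9 belonged to its section on fatty acid elongation and wax biosynthesis. Of the 653 genes of that section in the count table, 44 reached the minimum and 17 of these fell past the threshold in all lines, 9 of them members. Over all 6364 genes, 3.72% fell in this way and 0.754% were members. The other 10 sections held no member. The largest of these past the minimum, 44 genes of plastidial fatty acid synthesis and 49 of triacylglycerol synthesis, are too few for that share to make this a result. The 9 genes are copies of only 3 Arabidopsis genes.

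The largest group comprised 4 copies of the Arabidopsis lipid transfer protein gene AT2G38540, known as LTP1. BnaA04g22080D had normalized read counts of 11599, 8330 and 584 at 8, 25 and 45 DAF in Youngsan, 12583, 9503 and 1098 with CpFatB4, and 10682, 12739 and 289 with CpFatB5. It was the most abundant member in every library of 8 DAF, and its CpFatB5 library of 25 DAF stood above those of the other 2 lines. From 25 to 45 DAF it changed by a log2 of -3.83, -3.11 and -5.46 in Youngsan, CpFatB4 and CpFatB5.

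BnaC04g45800D showed a similar course with a deeper end, from 7350 at 25 DAF to 345 at 45 DAF in Youngsan, from 8475 to 419 in CpFatB4 and from 11673 to 181 in CpFatB5. BnaA05g34760D went from 6243 to 278, from 7222 to 309 and from 9251 to 129. All copies of this group kept less of their level in CpFatB5 than in the other 2 lines. Most genes did so too: the ratio of 45 to 25 DAF was lower in CpFatB5 than in Youngsan for 83.9% of the 6364 genes. It was lower than in CpFatB4 for 65.7%. BnaC04g06750D went from 4464 to 152, from 4917 to 128 and from 5131 to 66.0, which left 3.40, 2.60 and 1.29% of the level of 25 DAF. It was 1 of 3 members that at 45 DAF were highest in Youngsan and lowest in CpFatB5.

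The remaining copies of LTP1 in the list did not share this course. BnaC04g06760D, whose number directly follows that of BnaC04g06750D in the gene numbering of chromosome C04, fell early, by a log2 of -2.47, -1.72 and -1.98 from 8 to 25 DAF, and from 25 to 45 DAF changed by 0.30 in Youngsan, 0.54 in CpFatB4 and -0.89 in CpFatB5. BnaAnng27610D had 8088, 2001 and 1691 normalized read counts in Youngsan at the 3 stages, and BnaA03g17860D had at most 5.82 in any library. Thus at 45 DAF the 2 expressed copies outside the set stood above the 4 members in every line, although at 25 DAF they stood below them.

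The 2 other numerical neighbours in the list gave the same contrast. BnaA04g22070D and BnaC04g45790D, copies of a second lipid transfer protein gene, AT2G38530, precede BnaA04g22080D and BnaC04g45800D. BnaA04g22070D had 3231 at 25 DAF and 4343 at 45 DAF in Youngsan, 5013 and 9406 with CpFatB4, and 4573 and 2330 with CpFatB5. BnaC04g45790D changed from 25 to 45 DAF by a log2 of 0.83, 1.23 and -0.45. Both neighbours were higher at 45 than at 25 DAF in Youngsan and CpFatB4, where the members next to them had fallen past the threshold, and were lower in CpFatB5. Of the other lipid transfer protein genes, 4 copies of AT5G59310 and 3 of AT5G59320 also fell past the threshold in all lines, but had left the 2-fold band from 8 to 25 DAF in at least 1 line.

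**Figure D3:**
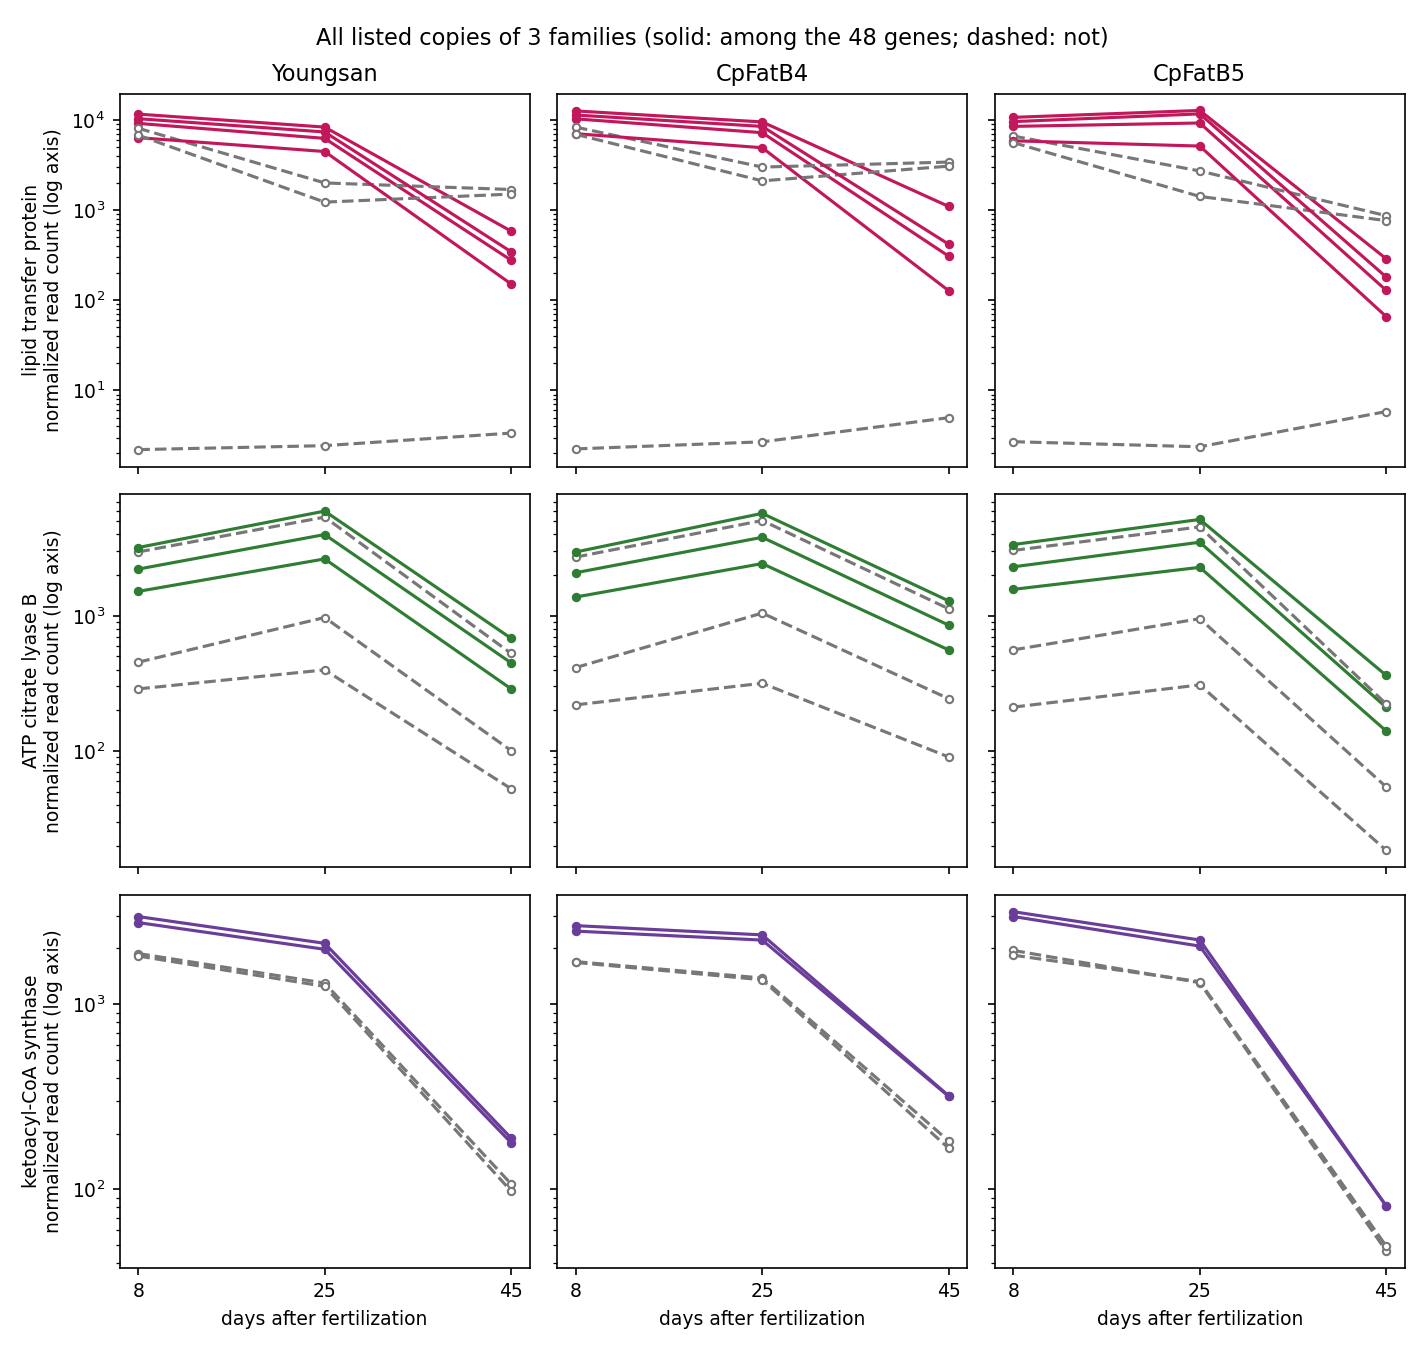
Normalized read count (log axis) at 8, 25 and 45 days after fertilization of all listed copies of AT2G38540 (top), AT5G49460 (middle) and AT2G26250 (bottom) in Youngsan, CpFatB4 and CpFatB5 (columns). Solid coloured lines are members and dashed lines are the other copies; 2 dashed lipid transfer protein copies fall before 25 days and end above the members.

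The next group comprised 3 copies of AT5G49460, the B subunit of cytosolic ATP citrate lyase, the enzyme that splits citrate into oxaloacetate and the acetyl-CoA used for elongation. BnaC09g02690D had 3198, 5947 and 682 normalized read counts in Youngsan, 2965, 5719 and 1289 with CpFatB4, and 3363, 5158 and 363 with CpFatB5. It lay near the upper edge of the flat band, with log2 ratios of 25 to 8 DAF of 0.89, 0.95 and 0.62. From 25 to 45 DAF it changed by -3.12, -2.15 and -3.83.

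BnaA02g30820D and BnaC02g39080D ran in parallel at lower levels. BnaA02g30820D kept 11.3% of its level of 25 DAF in Youngsan, 22.4% in CpFatB4 and 6.02% in CpFatB5, and BnaC02g39080D kept 10.9, 23.0 and 6.17%. The other 3 copies also fell, but BnaAnng28310D was removed by the clause on line differences and BnaA09g03340D and BnaC07g27210D did not reach the minimum. BnaA09g03340D had also left the flat band, with log2 ratios of 25 to 8 DAF of 1.10 in Youngsan and 1.34 in CpFatB4, and BnaC07g27210D missed the threshold in CpFatB4 at -1.81.

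The A subunit, the partner in the same enzyme, was not among the 48. The 3 copies of AT1G60810 missed the threshold in CpFatB4: BnaA09g53260D had 4323 and 841 at 25 and 45 DAF in Youngsan, 4380 and 1877 with CpFatB4, and 3861 and 412 with CpFatB5. The 2 copies of AT1G09430 went the other way, and BnaA08g26420D had 948 and 2356 in Youngsan, 889 and 2337 with CpFatB4, and 795 and 1726 with CpFatB5. The copies annotated to this enzyme thus differed in direction between 25 and 45 DAF.

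The last group was the pair BnaA04g15380D and BnaC04g38330D, copies of AT2G26250, a ketoacyl-CoA synthase known in Arabidopsis as FIDDLEHEAD and needed there to keep epidermal surfaces from fusing. BnaA04g15380D had 2966, 2128 and 189 normalized read counts in Youngsan, 2651, 2363 and 320 with CpFatB4, and 3152, 2217 and 81.5 with CpFatB5. It declined before 25 DAF too, by a log2 of -0.48, -0.17 and -0.51. BnaC04g38330D differed from it by less than 1.2-fold in all 18 raw columns, so reads shared between these copies may have been counted for both. The remaining copies, BnaA09g40640D and BnaC08g33100D, fell in the same way from 1298 and 1246 at 25 DAF in Youngsan but did not reach the minimum.

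Genes of the later elongation steps were flatter in CpFatB4. The ketoacyl-CoA reductase copy BnaA07g26670D had 1826 and 440 at 25 and 45 DAF in Youngsan, 1911 and 1254 with CpFatB4, and 1850 and 354 with CpFatB5. The enoyl-CoA reductase copy BnaA09g34930D had 1848 and 302, 1836 and 1288, and 1551 and 209. None of the 4 and 2 copies of these enzymes that reached the minimum passed the threshold in all lines, and the median over the 44 genes of the section was -2.21, -0.68 and -2.97 in Youngsan, CpFatB4 and CpFatB5.

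Of the other 39 members, 5 had only a broad gene ontology category in the sources used here. The remaining 34 had neither a description nor a category there. The study also annotated most mapped genes by sequence similarity, and that fuller annotation was not read here. The categories had been filled by the study with genes that changed in these same libraries. BnaC03g56170D was listed under hydrolase activity and cell component organization, BnaA08g29200D under hydrolase activity and organelle membrane, BnaC05g48870D under lyase activity and stress response, BnaA01g23480D under isomerase activity and cofactor binding, and BnaC03g20400D under transmembrane transporter activity and development.

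Many of the 48 genes may not be separate measurements. Counts of 30 members lay within 1.2-fold of those of another member in all 18 raw columns, and these fell into 12 sets, which left 18 single genes. The treatment of reads that match several copies is not given in the sources used here, so such sets may be read as a single signal. Summed over its columns, every library held more counts than the clean reads that the study lists for it. Some reads may thus have been counted repeatedly. In all libraries except CpFatB5 at 45 DAF, the counts averaged over the columns also exceeded those clean reads. How repeated counting was split between columns and copies was not tested. The largest near-equal set comprised BnaC03g75120D, BnaC03g56170D, BnaA06g17780D, BnaA06g20530D, BnaA06g22200D and BnaC03g51550D, on chromosomes A06 and C03 by their names. By name, 23 members lay in the A and 25 in the C subgenome, against 3147 and 3200 of the 6364 genes.

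The set on A06 and C03 also held the highest levels among the members at 25 DAF in Youngsan. In CpFatB4 it held the highest level at 25 DAF, but not all of the next ones. There BnaA04g22080D, at 9503, lay above BnaA06g20530D, BnaA06g22200D and BnaC03g51550D of the set, at 9449, 8912 and 8906. BnaC03g75120D had 8068, 11583 and 1337 normalized read counts at the 3 stages in Youngsan, 7656, 10946 and 2209 with CpFatB4, and 8085, 9811 and 746 with CpFatB5. All 6 genes followed this course, and each kept more of its level in CpFatB4 than in the other 2 lines. BnaAnng23580D, just outside the set by its counts, had 7999 and 1068 at 25 and 45 DAF in Youngsan, 7589 and 1653 with CpFatB4, and 6814 and 581 with CpFatB5.

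The deepest loss was that of BnaC09g38100D, which has no description in the sources used here. Its normalized read counts were 2255, 2163 and 14.0 in Youngsan, 2193, 1902 and 30.7 with CpFatB4, and 1766, 1979 and 8.73 with CpFatB5. From 25 to 45 DAF it was 154-fold lower in Youngsan, 61.9-fold in CpFatB4 and 227-fold in CpFatB5. Its mean raw counts at 45 DAF were 12.5, 18.5 and 4.50, and exact 95% intervals of the log2 ratio, for counting error only, were -8.29 to -6.52, -6.75 to -5.33 and -9.87 to -6.64. The intervals took the rounded mean of the 2 columns as the count, and those of the 3 lines overlap in part. The scaled columns at 45 DAF were 16.8 and 11.2 in Youngsan, 29.9 and 31.5 with CpFatB4, and 7.79 and 9.66 with CpFatB5. The order of the lines was not tested for this gene.

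BnaA03g32350D and BnaC03g37710D, a near-equal pair, fell almost alike in the lines. BnaC03g37710D had 2145 and 73.9 at 25 and 45 DAF in Youngsan, 1974 and 68.9 with CpFatB4, and 2500 and 68.9 with CpFatB5. The range of its log2 ratio over the lines was 0.34, the narrowest of all members. BnaA05g33810D and BnaCnng05580D had ranges of 2.22 and 2.29 and, with BnaA04g22080D at 2.35, were the only members above 2. BnaA05g33810D had 4949 and 273 in Youngsan, 4925 and 485 with CpFatB4, and 4732 and 99.9 with CpFatB5, and BnaCnng05580D ended at 203, 339 and 61.1.

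**Figure D4:**
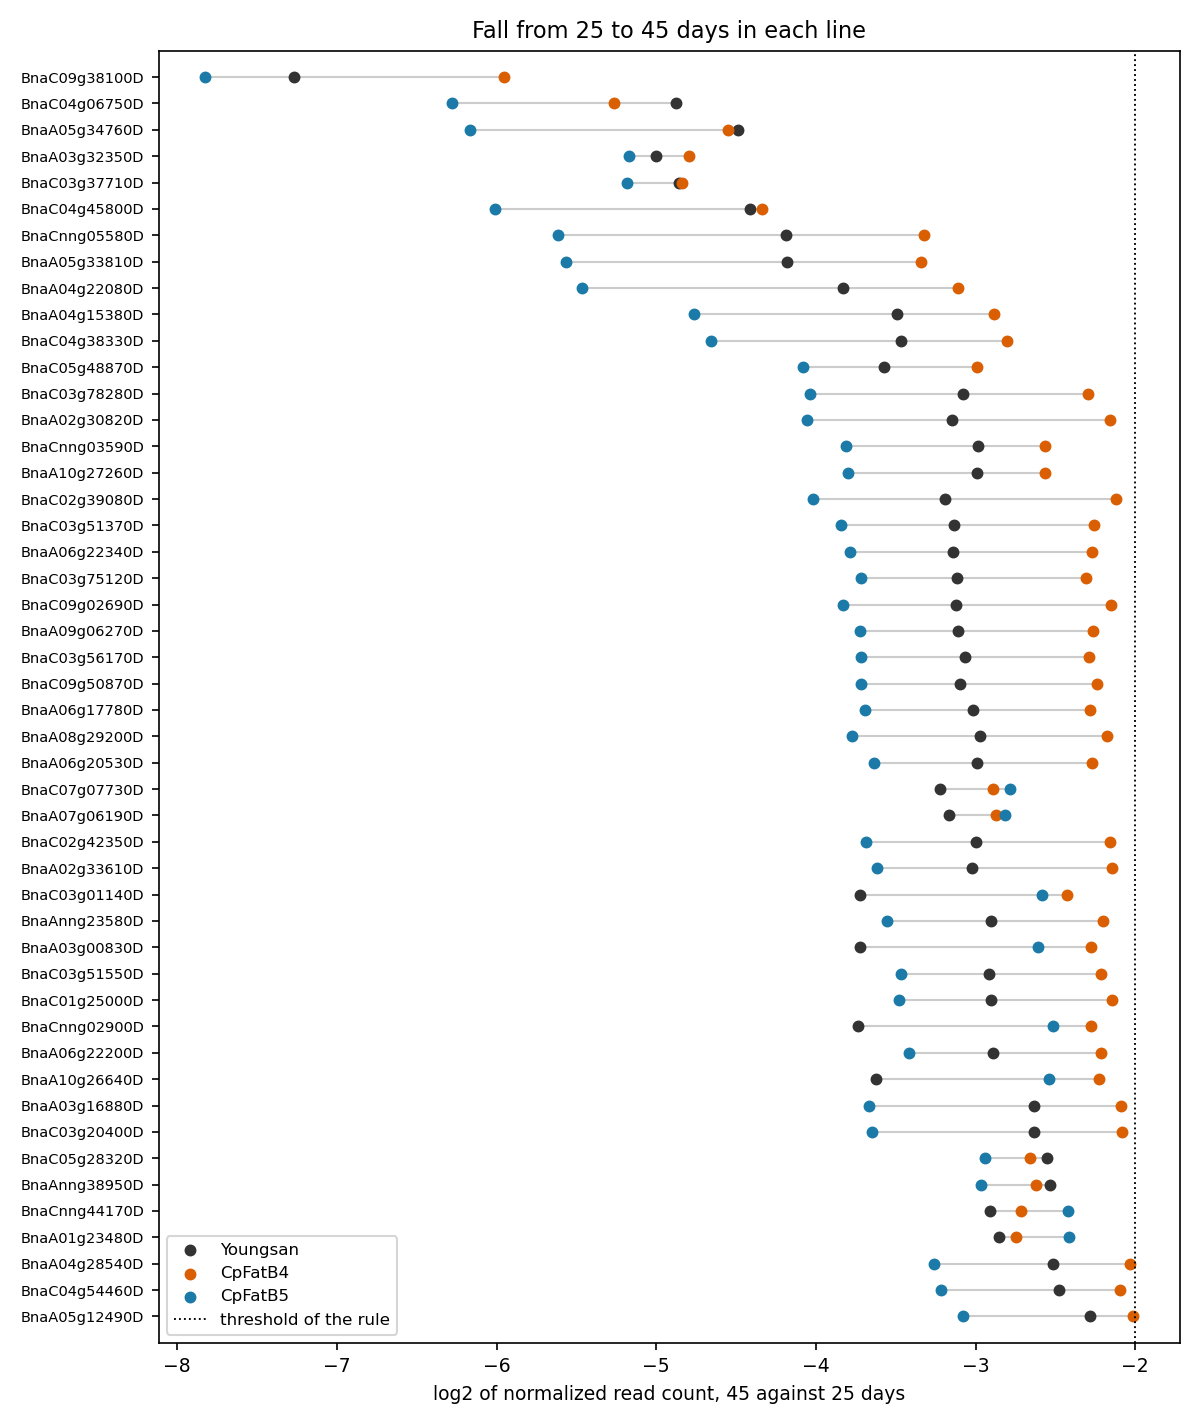
Log2 ratio of normalized read counts at 45 to 25 days after fertilization (horizontal axis) of each member (vertical axis, sorted by the mean over the lines) in Youngsan, CpFatB4 and CpFatB5. Points are single libraries compared within a line and the dotted line is the threshold of -2. The values reach -7.82. CpFatB5 lies left of Youngsan for 40 of the 48 members, against 83.9% of the 6364 genes. It lies left of CpFatB4 for 44 members, against 65.7% of genes.

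Before the loss the lines were close in the members, as they were in most of the 6364 genes. All 48 members lay within 2-fold of each other across the lines at 8 DAF and at 25 DAF, where 92.0 and 93.8% of the 6364 genes did so. The line effect over these 6 libraries was tested with limma voom, with stage as a block and 2 residual degrees of freedom, over 73957 genes. No member was called for CpFatB4, for which 0.0% of all genes were called, or for CpFatB5, for which 0.00676% were called, and no member had an unadjusted p under 0.05, where 7.33% of all genes did for CpFatB4 and 6.61% for CpFatB5. The fitted log2 differences of the members were between -0.26 and 0.26 for CpFatB4 and between -0.38 and 0.27 for CpFatB5, with standard errors of 0.132 to 0.209. The lowest adjusted limma p was 0.696 for BnaA01g23480D in CpFatB4 and 0.748 for BnaAnng38950D in CpFatB5. The residual of this fit comes from how the change from 8 to 25 DAF differs between lines. The rule bounded that change in each line, so the test was not free of the rule. With so few genes called at all, it could not show that the lines were alike.

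At 45 DAF the lines stood apart. Only 8 of the 48 members lay within 2-fold across the lines, against 57.5% of the 6364 genes. CpFatB4 was above Youngsan in 44 members, against 43.7% of genes, and CpFatB5 was below Youngsan in 39, against 89.5%. The median log2 difference to Youngsan was 0.67 in CpFatB4 and -0.84 in CpFatB5, against -0.10 and -0.53 over the 6364 genes. In CpFatB4, 6 members were at least 2-fold above Youngsan (11.3% of genes) and none was 2-fold below it (8.74%). In CpFatB5, 2 were at least 2-fold above (2.39%) and 9 at least 2-fold below (18.3%). These counts turned with the scaling, to 8 above and 1 below with size factors from genes averaging 1000 counts or more and to 1 above and 14 below with TMM scaling. These comparisons share the Youngsan library, and the rule used the values of 45 DAF. With total count scaling CpFatB4 was above Youngsan in 35 members and the median difference was 0.18, against -0.59 over the 6364 genes.

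The order CpFatB4, Youngsan, CpFatB5 from high to low was found in 35 members and in 38.1% of the 6364 genes. Only 3.72% of the 6364 genes fell past the threshold in all lines. The order among those fallen genes was not counted, so it may not be particular to the members. Near-equal copies were counted separately among the 35. The share of counts of Napin and Cruciferin genes given above followed the same order at 45 DAF and the summed level of the late maturation genes the reverse. Transcripts of 2 seed coat laccase genes also followed it, with summed normalized read counts of at most 5.39 at 8 DAF, 16077 to 17605 at 25 DAF, and 786 in Youngsan, 1970 with CpFatB4 and 355 with CpFatB5 at 45 DAF. The part of these seed transcripts in the result was not tested.

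The 13 exceptions to this order, named after their values were seen, were largely near-equal sets. BnaA10g26640D, BnaA03g00830D, BnaCnng02900D and BnaC03g01140D were lowest in Youngsan: BnaA10g26640D had 230 at 45 DAF in Youngsan, 654 in CpFatB4 and 468 in CpFatB5, after 2828, 3065 and 2723 at 25 DAF.

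A second group of exceptions ended highest in CpFatB5. BnaCnng44170D had 352, 480 and 551 at 45 DAF in Youngsan, CpFatB4 and CpFatB5, and its near-equal partner BnaA01g23480D had 342, 444 and 526. They sat at the edge of the flat band, with log2 ratios of 25 to 8 DAF between 0.90 and 0.99. BnaA07g06190D and BnaC07g07730D were also lowest in Youngsan, at 216 and 200, with 318 and 300 in CpFatB4 and 312 and 306 in CpFatB5. BnaC05g28320D and BnaAnng38950D were highest in Youngsan, at 501 and 406, with 476 and 387 in CpFatB4 and 340 and 262 in CpFatB5. BnaC04g06750D shared their order, and BnaC03g37710D and BnaA03g32350D, with nearly equal levels in the lines, made up the rest.

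The 2 columns of a library, whose meaning is not stated, differed little for most members. The SD of their log2 ratio over the members was at most 0.0288 at 8 and 25 DAF, and at 45 DAF it reached 0.193 in Youngsan, 0.115 with CpFatB4 and 0.378 with CpFatB5. The largest gap was in BnaC05g48870D, with scaled columns of 306 and 560 at 45 DAF in Youngsan, 513 and 764 with CpFatB4, and 101 and 462 with CpFatB5. Its mean levels were 5152 and 433 at 25 and 45 DAF in Youngsan, 5071 and 639 with CpFatB4, and 4765 and 282 with CpFatB5. The fall was larger than this gap in each line, while the columns of Youngsan overlapped those of either transgenic line.

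Members lay close to each threshold. The weakest fall among the lines was -2.01 for BnaA05g12490D, -2.03 for BnaA04g28540D and -2.08 for BnaC03g20400D, and just outside it was -1.95 for BnaC04g40620D, -1.92 for BnaC02g17150D and -1.92 for BnaA03g08700D. The largest early change was 0.99 for BnaA01g23480D, 0.97 for BnaA08g29200D and 0.95 for BnaCnng44170D, against 1.00, 1.01 and 1.02 for BnaA06g30890D, BnaC07g25770D and BnaA03g37120D just outside. The mean of the 6 libraries was 1016 for BnaC09g38100D, 1100 for BnaA03g32350D and 1123 for BnaA03g16880D, against 987 for BnaA10g15570D, 982 for BnaC09g46270D and 920 for BnaA02g06690D. BnaC04g40620D also had counts near-equal to those of a member set, BnaC04g54460D, BnaA04g28540D and BnaA05g12490D.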

How the data were processed

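Whole pods were profiled by RNA-Seq. The authors trimmed the reads, mapped them with Bowtie2 2.1.0 to B. napus coding sequences and deposited 18 columns of raw read counts, 2 per library, the lowest value being 1. The 13 other columns in the same table were not used. Size factors were medians of ratios over the 18 columns, and both scaled columns of a library were averaged to give its normalized read count, with a mean raw count under 3 set to 3. The minimum was read as the mean over 6 libraries. The members and gene lists were chosen with earlier results of these data known. The line effect was fitted with limma 3.58.1 (R 4.3.3) on counts summed per library, with TMM scaling, genes of at least 10 counts in 2 libraries and Benjamini-Hochberg adjustment over all of them; the fit and the rule were checked on simulated data. Counts entered limma because large deposited values carry commas and the unit was recorded as other. Single genes named were members with a description, the 10 highest at 25 DAF, the 10 deepest falls, the 5 widest ranges over lines and the genes nearest a threshold; others were named after their values were seen. Descriptions and Arabidopsis matches came from the study's gene lists. Python 3.11.15 was used. No sequence was printed, since the RefSeq gene table used here named none of the members.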

Additional observations from a re-analysis of the deposited data

Results flagged for a closer look

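From 8 to 25 DAF, BnaA04g22080D and BnaC04g45800D, both lipid transfer protein copies, were lower in Youngsan and CpFatB4 and higher in CpFatB5. The log2 change of BnaA04g22080D was -0.48, -0.40 and 0.25, so CpFatB5 differed from Youngsan by 0.73. That of BnaC04g45800D was -0.49, -0.42 and 0.29, a difference of 0.77. With 1 library per line and stage this difference between lines was not tested.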

How the results depend on the processing

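The number of members depended on the scaling and the minimum. It was 27 with size factors from genes averaging 1000 counts or more, of which 14 were among the 48, and 98 with total count scaling, which included all 48. It was 232 with a minimum of 200, 23 with a minimum of 2000 and 17 with an early band of 0.5, and 143 without the stage criteria of CpFatB4. TMM scaling, the minimum within each line, a floor of 1, either column alone, or leaving out the criteria of Youngsan or CpFatB5 gave 46 to 58. Leaving out the criteria of a line was chosen after seeing the data.

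With the 48 held fixed, size factors from genes averaging 1000 counts or more moved the median log2 ratio of 45 to 25 DAF to -2.87 in Youngsan, -1.98 in CpFatB4 and -3.04 in CpFatB5, and total count scaling moved it to -2.84 in CpFatB4. The same scalings moved the median log2 ratio of 25 to 8 DAF from 0.36, 0.49 and 0.24 to -0.048, 0.11 and -0.022, and to -0.0075, 0.055 and 0.036, so its direction was not fixed. Over the 6364 genes the median ratio of 45 to 25 DAF was 0.17, 0.08 and 0.16 with the first scaling and -0.19, -0.79 and -0.70 with total counts.

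For CpFatB4 against Youngsan the median difference became -0.15 at 8 DAF and -0.019 at 25 DAF with the first scaling, and -0.025 at 25 DAF and 0.18 at 45 DAF with total counts. For CpFatB5 against Youngsan it became -0.094, -0.032 and -0.37 at 8, 25 and 45 DAF with the first, and 0.050 at 25 DAF with total counts. For CpFatB5 against CpFatB4 it became -0.0085 at 25 DAF and -1.04 at 45 DAF with the first, and 0.027, 0.080 and -0.95 at the 3 stages with total counts. All 252 log2 ratios of 45 to 25 DAF of 28 named members under the 3 scalings were -1 or lower. The rule had set these ratios at -2 or lower, and rescaling raised the medians by at most 0.68. This outcome was thus fixed in advance and is no check of the fall. The threshold of -2 was kept by 21 of the 48 in CpFatB4 and 42 in CpFatB5 with the first scaling and by 47 in CpFatB4 with TMM scaling, and by all 48 in the other lines and with total counts.

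Members called by limma numbered 0 for either line in each alternative, leaving out 1 library included (0 to 0), where the lowest adjusted p of a member was 0.237. The most members with an unadjusted p under 0.05 were 3 for CpFatB5 without its library of 8 DAF, where 5.48% of all genes had one. Without the Youngsan library of 25 DAF, 1591 genes were called for CpFatB4 and 1459 for CpFatB5 over the whole table, none of them members. No paired analysis was possible because the labels number no replicates within a line and stage. The limma fit paired libraries by stage only, and in every alternative the rule had bounded the change of the members from 8 to 25 DAF.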
